A study of Mus musculus with 6 samples.

Results

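The genes described here are 10 mouse genes that recognise nucleic acids in the cytosol or endosome, or restrict what such nucleic acids can do. They comprise the sensors Zbp1, Ddx58 (which encodes RIG-I), Ifih1 (MDA5), Dhx58 (LGP2) and Tlr3, the adaptor Mavs, and the restriction and RNA-editing genes Samhd1, Adar, Slfn5 and Sp110. They were taken by name from the 13264 targets of the deposited table. All 10 were present, and all 10 passed the filter on low values, a mean above the negative probe, which removed no target. The set was chosen by the signal of these genes in these same 6 regions, with the difference between the genotypes known. The members' differences between genotypes are therefore a description without p-values.

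The 6 samples were areas of mouse cholangiocarcinoma of the SB tumour line, read with GeoMx probes for the whole mouse transcriptome, an assay that releases a sequencing tag from each bound probe in a chosen area of a tissue section. Cells were collected where Desmin stained and CD45 did not, to obtain fibroblasts of the tumour and stellate cells of the liver that have been activated. Of the areas, 3 (numbers 11 to 13) came from Cd274F/FCol1A1Cre mice, in which Cd274, the gene of the checkpoint ligand PD-L1, is floxed and Cre is under Col1A1 control, so that deletion is limited to cells that use this promoter. The other 3 (numbers 14 to 16) came from Cd274+/+Col1A1Cre mice, which carry the same Cre with unfloxed Cd274. All lay on 1 slide, and genotype cannot be told apart from the block of areas. The labels give no animal, age or sex. Areas of a genotype may share an animal, and then every p-value below, which rests on the spread between areas, is too small.

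Viral or misplaced cellular RNA and DNA are detected inside cells by a small number of receptors. RIG-I and MDA5 are helicases that bind double-stranded RNA and signal through MAVS on mitochondria, and LGP2 is a related helicase without the signalling domain. TLR3 reads double-stranded RNA in endosomes, and ZBP1 binds nucleic acids in the left-handed Z form and can start necroptosis through RIPK3. Signalling through TBK1 and IRF3 or IRF7 switches on type I interferon, which in turn raises many of the sensors. ADAR edits adenosine to inosine in double-stranded RNA and so shields cellular RNA from MDA5, SAMHD1 degrades deoxynucleotides, and SLFN5 and SP110 are nuclear proteins induced by interferon.

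Summed signal was 223253 to 393615 in floxed-labelled and 720786 to 1024180 in control-labelled regions, so the regions were set to the same upper quartile (the 75th percentile over targets). On that scale the negative probe, which matches no mouse transcript, read 4.77, 6.97 and 5.39 in floxed-labelled and 5.06, 4.86 and 4.76 in control-labelled regions. Des, the gene of the stain that chose the cells, read 36.5 ± 12.6 in floxed-labelled and 31.4 ± 8.07 in control-labelled regions, and Cd274 read 19.2 ± 9.17 in floxed-labelled and 12.7 ± 1.91 in control-labelled regions (SD, n = 3 each). Cd274 had an adjusted p of 0.610 (limma, Benjamini-Hochberg), and it is not known here whether its probe lies within the floxed stretch, so it does not check the labels. The collagen gene Col1a1 read 1729 ± 467 in floxed-labelled and 2982 ± 666 in control-labelled regions (SD, n = 3 each), far above the negative probe in each region.

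Stretches of 4 member promoters are shown because they hold letters through which interferon-activated factors are known to act. Windows from 250 bases before to 50 bases after an annotated start were taken from RefSeq (GRCm38.p6). They were matched by symbol for 8 of the 10 members, in 11 windows, with Zbp1 and Dhx58 unmatched. Both strands were searched for GAAANNGAAA, the paired core of the interferon-stimulated response element, and for TTCNNNGAA, the gamma-activated sequence, which reads the same on both strands. Capitals mark the match, and each stretch runs along the gene's own strand.
Ddx58: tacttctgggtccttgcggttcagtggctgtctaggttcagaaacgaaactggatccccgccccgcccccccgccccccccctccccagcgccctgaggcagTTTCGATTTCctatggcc
Ifih1: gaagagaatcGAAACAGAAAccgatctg
Slfn5: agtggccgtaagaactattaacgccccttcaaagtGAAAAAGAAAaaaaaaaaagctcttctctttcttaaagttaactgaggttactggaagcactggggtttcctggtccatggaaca
Samhd1: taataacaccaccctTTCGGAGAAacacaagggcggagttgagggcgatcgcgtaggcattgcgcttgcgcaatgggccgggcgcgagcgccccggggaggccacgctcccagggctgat
They lie at chr4:40239806-40239925 (minus strand), chr2:62646206-62646233 (minus strand), chr11:82951912-82952031 (plus strand) and chr2:157135227-157135346 (minus strand).

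The paired GAAA core was present in Ddx58, Ifih1 and Slfn5, 3 of the 8 members, beside 3.44% of all 32851 windows and 3.75% of the 10521 targets with a window. In Ddx58 it lay on the opposite strand at bases 3 to 12 after the start, in Ifih1 at bases 33 to 42 after it, and in Slfn5 from base -155 to base -146, next to a run of adenines. The gamma-activated letters were present in Samhd1, from base -235 to base -227, and in Adar, at bases 23 to 31 after an annotated start. These were 2 of 8 members, beside 8.30% of all windows and 8.37% of targets with a window. Mavs, Tlr3 and Sp110 held neither set of letters in these windows. A match describes the sequence only.

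Zbp1, the sensor of Z-form nucleic acids, differed most between genotypes among the 10 genes. It read 37.0, 56.6 and 52.7 in floxed-labelled regions, against 10.6, 9.11 and 11.8 in control-labelled regions. All 3 floxed-labelled regions stood above the control-labelled range. The log2 difference was 2.10 ± 0.26 (SE) on the log2(signal + 1) scale, which understates the change of low genes, and ranked 23 among all 13264 targets. Zbp1 was 8.55 ± 1.08 times the negative probe in floxed-labelled and 2.15 ± 0.309 times it in control-labelled regions (SD, n = 3 each), so its control level was near background. As deposited, without scaling, it read 28.0, 25.8 and 38.9 in floxed-labelled and 14.9, 12.8 and 23.4 in control-labelled regions. It was the only member that still stood above the control-labelled range without scaling.

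Of the RIG-I-like receptors, Dhx58 and Ifih1 stood above the control-labelled range in all 3 floxed-labelled regions, as did 10.0% of all targets. Ddx58 overlapped that range. Dhx58, which encodes LGP2, a modulator of the other helicases of the family, read 22.2, 37.0 and 31.4 in floxed-labelled regions, against 11.3, 7.40 and 10.3 in control-labelled regions. The groups did not overlap, with a log2 difference of 1.54 ± 0.30 (SE). Ifih1, which encodes MDA5, a sensor of long double-stranded RNA, read 14.8, 17.4 and 15.7 in floxed-labelled regions, against 12.1, 9.11 and 8.74 in control-labelled regions. These groups did not overlap either, but the log2 difference was 0.64 ± 0.32 (SE). Ifih1 was 2.84 ± 0.310 times the negative probe in floxed-labelled and 2.03 ± 0.307 times it in control-labelled regions (SD, n = 3 each), near background in all 6. Ddx58, which encodes RIG-I, a sensor of short double-stranded RNA with an uncapped end, read 16.7, 41.4 and 44.9 in floxed-labelled regions, against 24.9, 31.9 and 24.7 in control-labelled regions. Here floxed-labelled regions 2 and 3 stood above and region 1 below the control-labelled range. The log2 difference was 0.22 ± 0.34 (SE), 0.66 without floxed-labelled region 1 and -0.03 without floxed-labelled region 3.

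A ratio of 2 targets within a region does not depend on how that region was scaled, although it gives no relative abundance of transcripts, since probes differ. Dhx58 over Ddx58 was 1.33, 0.895 and 0.700 in floxed-labelled and 0.455, 0.232 and 0.417 in control-labelled regions. Dhx58 over Ifih1 was 1.88 ± 0.331 in floxed-labelled and 0.975 ± 0.185 in control-labelled regions (SD, n = 3 each). Both ratios were higher in all 3 floxed-labelled regions. In control-labelled regions Dhx58 was 1.97 ± 0.392 and Ifih1 2.03 ± 0.307 times the negative probe (SD, n = 3 each). Background shared by 2 such targets draws their ratio towards 1, so the control-labelled ratio of Dhx58 over Ifih1 is uncertain. Ifih1 over Ddx58, at 0.553 ± 0.293 in floxed-labelled and 0.375 ± 0.101 in control-labelled regions (SD, n = 3 each), overlapped.

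**Figure D1:**
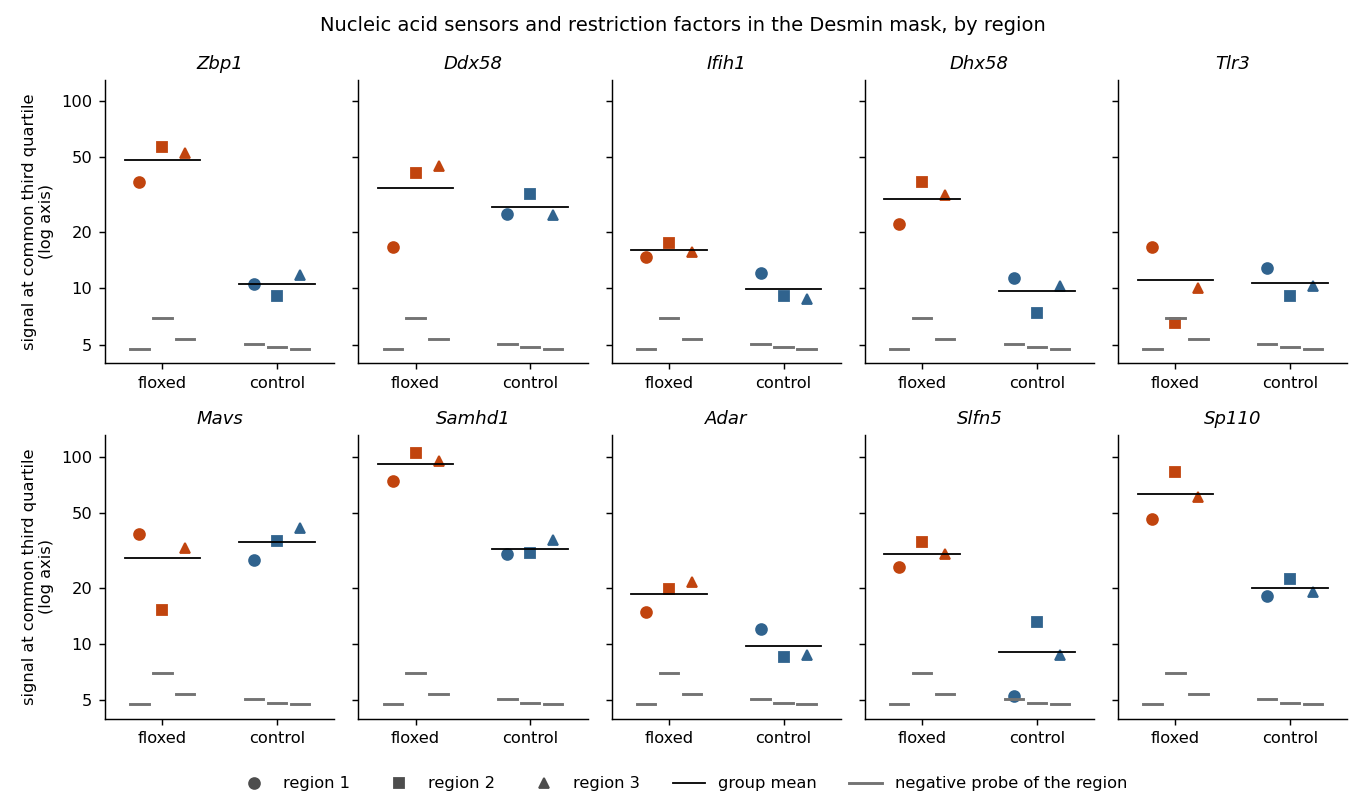
Signal of the 10 members (vertical log axis, regions scaled to a common upper quartile) in the 3 floxed-labelled (orange) and 3 control-labelled (blue) regions. Symbols give the region number, black lines the group mean and grey lines each region's negative probe, and Ddx58, Tlr3 and Mavs are the members whose groups overlap.

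The endosomal sensor and the mitochondrial adaptor overlapped between genotypes. Tlr3 read 16.7, 6.53 and 10.1 in floxed-labelled regions, against 12.8, 9.11 and 10.3 in control-labelled regions. It was 2.10 ± 1.29 times the negative probe in floxed-labelled and 2.19 ± 0.332 times it in control-labelled regions (SD, n = 3 each), and in floxed-labelled region 2 it lay below the probe, at 0.937 times it. Floxed-labelled region 1 lay above and region 2 below the control-labelled range. Mavs, which relays signals of both RIG-I and MDA5, read 38.9, 15.2 and 32.5 in floxed-labelled regions, against 28.0, 35.3 and 41.6 in control-labelled regions. It was 5.52 to 8.75 times the negative probe in 5 regions and 2.19 times it in floxed-labelled region 2, the lowest. The log2 difference was -0.35 ± 0.33 (SE), and 0.04 without floxed-labelled region 2.

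The 4 restriction and editing genes stood above the control-labelled range in all 3 floxed-labelled regions, as did 10.0% of all targets. The members were chosen on this contrast, so nothing is read from this count. Samhd1, whose product degrades deoxynucleoside triphosphates and so limits reverse transcription, read 74.0, 105 and 95.3 in floxed-labelled regions, against 30.2, 30.8 and 35.99 in control-labelled regions. It was 16.1 ± 1.43 times the negative probe in floxed-labelled and 6.62 ± 0.836 times it in control-labelled regions (SD, n = 3 each), well above background in both. Its log2 difference was 1.46 ± 0.23 (SE). Sp110, which encodes a nuclear body protein, read 46.3, 82.7 and 60.6 in floxed-labelled regions, against 18.1, 22.2 and 19.0 in control-labelled regions. The lowest floxed-labelled region was well above the highest control-labelled region, with a log2 difference of 1.59 ± 0.26 (SE).

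Slfn5, a Schlafen protein induced by interferon, read 25.9, 34.8 and 30.3 in floxed-labelled regions, against 5.29, 13.1 and 8.74 in control-labelled regions. Control-labelled region 1 was at background, 1.04 times the negative probe, which leaves the size of the log2 difference of 1.71 ± 0.33 (SE) uncertain. Adar, the editing enzyme, read 14.8, 19.6 and 21.3 in floxed-labelled regions, against 12.1, 8.54 and 8.74 in control-labelled regions. The gap between the groups was narrow, with a log2 difference of 0.86 ± 0.32 (SE), and Adar was 3.29 ± 0.594 times the negative probe in floxed-labelled and 1.99 ± 0.343 times it in control-labelled regions (SD, n = 3 each). Slfn5 and Sp110 belong to families with close copies, and their probes could take up a relative's transcript.

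Of the 10 members, 7 stood above the control-labelled range in all 3 floxed-labelled regions, as did 10.0% of the 13264 targets, and 0 stood below it, as did 9.08%. In the fit over all targets (limma with a mean-variance trend, Benjamini-Hochberg, adjusted p under 0.05), Zbp1, Dhx58, Samhd1, Slfn5 and Sp110 were called higher, 5 of 10 beside 0.588% of targets, and 0 were called lower, beside 0.113%. The members were chosen on this contrast, so nothing is read from these counts. Their median log2 difference was 1.16, beside 0.02 for all targets, with 0.64 for the 5 sensors and 1.53 for the 4 restriction and editing genes. The calls depended on the setting. Dhx58, Samhd1, Slfn5 and Sp110 lost theirs without floxed-labelled region 3 or without any 1 control-labelled region, and Dhx58 and Slfn5 also without floxed-labelled region 2, under quantile scaling and with the negative probe subtracted. Without the mean-variance trend 0 members were called, and with regions set to a common negative probe only Zbp1 was. Without any scaling, where the median of all targets was -1.22, Zbp1 was called higher and 3 members were called lower. In that setting 21 of the 13264 targets were called higher and 9905 lower. There 1 member (Zbp1) stood above and 4 stood below the control-labelled range, and the share of all targets doing so is not given here.

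**Figure D2:**
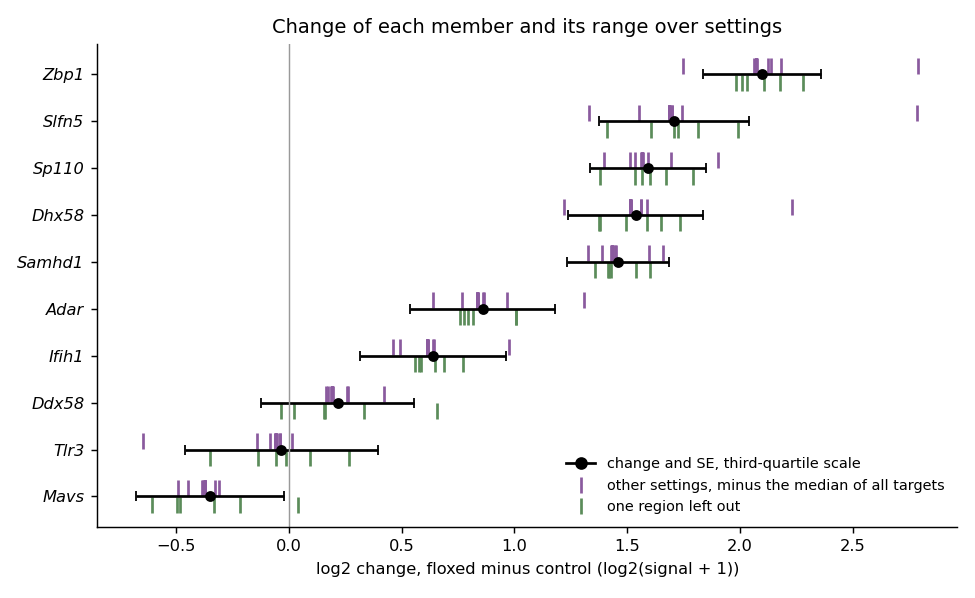
Log2 difference, floxed-labelled minus control-labelled, of each member with its SE (black), under other settings after subtracting the median of all targets (purple), and with a region left out (green). Zbp1, Slfn5, Sp110, Dhx58 and Samhd1 stay above 1 in these settings, Adar and Ifih1 stay above 0, and Ddx58, Tlr3 and Mavs have settings on both sides of 0.

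The members also varied among the floxed-labelled regions. Of the 10, 8 were lowest in floxed-labelled region 1, while Mavs and Tlr3 were highest there and lowest in region 2. Between its lowest and highest region Ddx58 varied 2.69 times among floxed-labelled and 1.29 times among control-labelled regions. Mavs varied 2.55 and 1.49 times, and Ifih1 1.18 and 1.38 times, in floxed-labelled and control-labelled regions. Floxed-labelled region 2 had the lowest summed signal, and Mavs and Tlr3 amounted there to 7 and 3 steps, where a step is the spacing of the column's values. Ptprc, which encodes CD45, was also lowest in floxed-labelled region 1. It read 29.6, 58.8 and 55.0 in floxed-labelled regions, against 21.2, 26.8 and 30.3 in control-labelled regions, and its part in the order of the regions was not tested.

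Ratios to Mavs restate the members' differences within each region and are no further support, since Mavs itself overlapped between the genotypes. Zbp1 over Mavs was 0.952, 3.71 and 1.62 in floxed-labelled and 0.378, 0.258 and 0.284 in control-labelled regions. Samhd1 over Mavs was 1.90, 6.86 and 2.93 in floxed-labelled and 1.08, 0.871 and 0.864 in control-labelled regions. Dhx58, Slfn5 and Sp110 over Mavs were also higher in all 3 floxed-labelled regions, while Ddx58, Ifih1, Adar and Tlr3 over Mavs overlapped. Except for Tlr3, every ratio to Mavs was highest in floxed-labelled region 2, where Mavs was lowest.

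**Figure D3:**
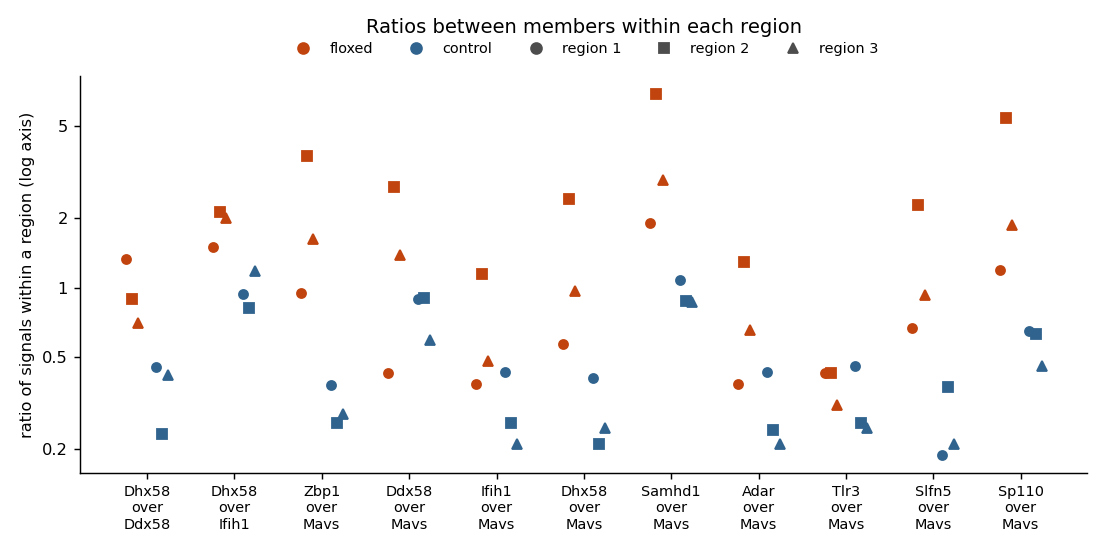
Ratio of the signals of 2 members within a region (vertical log axis) in floxed-labelled (orange) and control-labelled (blue) regions, with symbols for the region number. Dhx58 over Ddx58, Dhx58 over Ifih1, and Zbp1, Dhx58, Samhd1, Slfn5 and Sp110 over Mavs are higher in all 3 floxed-labelled regions.

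Other genes of nucleic acid sensing were read from 11 lists of known pathway members, with 192 tested genes outside the 10. Of these, 3 rose and 0 fell in floxed-labelled regions (limma, adjusted p under 0.05 over all targets), and the median log2 difference was 0.15. The share that rose was 1.56%, beside 0.588% of all targets, and 29 of 192 had an unadjusted p under 0.05, beside 1686 of all 13264 targets. Irf7, a transcription factor that amplifies type I interferon, read 62.9, 82.7 and 107 in floxed-labelled regions, against 8.31, 16.5 and 21.6 in control-labelled regions. It was higher in all 3 floxed-labelled regions, by 2.43 ± 0.33 (log2, SE) with an adjusted p of 0.00614 (limma). Bst2, tetherin, which holds enveloped viruses at the cell surface, read 94.4, 109 and 118 in floxed-labelled regions, against 21.2, 24.5 and 38.0 in control-labelled regions. It too was higher in all 3, by 1.94 ± 0.25 (log2, SE) with an adjusted p of 0.00494 (limma). Ly86, which encodes the MD-1 partner of the Toll-like receptor relative CD180, read 42.6, 50.1 and 53.8 in floxed-labelled regions, against 22.7, 21.6 and 22.1 in control-labelled regions. It was higher in all 3, by 1.10 ± 0.22 (log2, SE) with an adjusted p of 0.0492 (limma). Without floxed-labelled region 3 none of Irf7, Bst2 and Ly86 was called, without control-labelled region 1 only Irf7 was, and Ly86 also lost its call without floxed-labelled region 2 and without control-labelled region 2 or 3. Ly86 was also not called under quantile scaling, with a pseudocount of 0.5 or with the negative probe subtracted. With a common negative probe, and without any scaling, Irf7 was called and Bst2 and Ly86 were not. Without the mean-variance trend 0 of the 3 were called.

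Among 13 other RNA sensors, 0 were called (limma), 2 had an unadjusted p under 0.05, and the median was 0.13. The smallest p belonged to Nod2, a peptidoglycan receptor also reported to sense viral RNA, at 17.1 ± 2.41 in floxed-labelled and 8.63 ± 0.795 in control-labelled regions, and to Prkra, an activator of the kinase PKR, at 11.6 ± 2.73 in floxed-labelled and 19.7 ± 1.22 in control-labelled regions (SD, n = 3 each). Their adjusted p were 0.279 and 0.327 (limma). Eif2ak2, the gene of PKR, read 25.9, 61.0 and 47.1 in floxed-labelled regions, against 27.2, 30.2 and 31.9 in control-labelled regions, with floxed-labelled region 1 the lowest of all 6. Among 17 DNA-sensing genes 0 were called (limma), with 3 at an unadjusted p under 0.05 and a median of 0.25. Ifi203 and Mndal, relatives of the DNA sensor gene Aim2, had the smallest p there. Ifi203 read 37.6 ± 18.9 in floxed-labelled and 12.2 ± 4.07 in control-labelled regions, and Mndal read 36.4 ± 8.57 in floxed-labelled and 15.5 ± 6.32 in control-labelled regions (SD, n = 3 each), with adjusted p of 0.114 and 0.147 (limma). Cgas, the cytosolic DNA sensor, read 22.05 ± 12.0 in floxed-labelled and 11.7 ± 1.34 in control-labelled regions, and Sting1, its signalling partner, 28.1 ± 9.87 in floxed-labelled and 17.9 ± 5.55 in control-labelled regions (SD, n = 3 each), with adjusted p of 0.451 and 0.438 (limma).

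The relay from MAVS and TLR3 to interferon gave 1 call among 23 genes, Irf7, and a median of 0.18. Ticam1, which encodes TRIF, the adaptor of TLR3, read 18.5, 13.1 and 13.5 in floxed-labelled regions, against 31.0, 24.5 and 26.2 in control-labelled regions. It stood below the control-labelled range in all 3 floxed-labelled regions, with an adjusted p of 0.214 (limma). Trim14, an adaptor at MAVS, had a log2 difference of 0.53 ± 0.30 (SE, adjusted p 0.483, limma). Log2 differences were -0.05 ± 0.29 for the kinase gene Tbk1 and 0.30 ± 0.23 for the transcription factor gene Irf3 (SE), with adjusted p of 0.965 and 0.603 (limma). Of 22 brakes on RNA sensing 0 were called (limma), with 2 at an unadjusted p under 0.05 and a median of -0.01. Cyld, a deubiquitinase that restrains RIG-I, read 49.1 ± 12.0 in floxed-labelled and 24.8 ± 2.26 in control-labelled regions, and Ndfip1, an adaptor of ubiquitin ligases, 67.0 ± 18.4 in floxed-labelled and 102 ± 15.2 in control-labelled regions (SD, n = 3 each). Their adjusted p were 0.144 and 0.343 (limma).

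Among 11 partners through which ZBP1 can kill cells, 0 were called (limma), 1 had an unadjusted p under 0.05, and the median was 0.04. Ripk3, the kinase that ZBP1 recruits, read 9.25, 28.3 and 19.1 in floxed-labelled regions, against 19.6, 17.7 and 22.1 in control-labelled regions, and the groups overlapped. Mlkl, which encodes the executioner of necroptosis, read 36.6 ± 4.97 in floxed-labelled and 29.2 ± 5.78 in control-labelled regions (SD, n = 3 each). Log2 differences were -0.19 ± 0.36 for Ripk3 and 0.33 ± 0.24 for Mlkl (SE), with adjusted p of 0.871 and 0.601 (limma). The caspase gene Casp6 and Pycard, which encodes the inflammasome adaptor ASC, had -0.70 ± 0.30 and 0.38 ± 0.27 (log2, SE), with adjusted p of 0.369 and 0.574 (limma).

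Among 30 other restriction factors Bst2 was called, 11 had an unadjusted p under 0.05, and the median was 0.35. Sp100, a nuclear body relative of Sp110, read 38.9, 41.4 and 39.3 in floxed-labelled regions, against 10.6, 21.1 and 16.97 in control-labelled regions. Its groups did not overlap, and its adjusted p was 0.0604 (limma). Sp140, of the same family, read 14.8 ± 6.60 in floxed-labelled and 15.9 ± 5.54 in control-labelled regions (SD, n = 3 each). Ifi27l2a, an interferon-induced gene, had a log2 difference of 1.17 ± 0.28 (SE, adjusted p 0.0930, limma). Slfn4, a Schlafen gene of myeloid cells, read 7.40, 71.9 and 43.7 in floxed-labelled regions, against 6.80, 2.85 and 9.25 in control-labelled regions. Floxed-labelled regions 2 and 3 were far above the rest and region 1 was within the control-labelled range, with an adjusted p of 0.203 (limma). Slfn2, a Schlafen gene known for T cell quiescence, read 23.8 ± 4.95 in floxed-labelled and 23.6 ± 2.16 in control-labelled regions (SD, n = 3 each).

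Genes beside SAMHD1 and ADAR gave no call. Of 16 genes of deoxynucleotide supply 0 were called (limma), with 3 at an unadjusted p under 0.05, a median of 0.49 and 13 above 0. Cmpk2, a mitochondrial nucleotide kinase induced by interferon, read 26.0 ± 8.25 in floxed-labelled and 11.3 ± 1.59 in control-labelled regions, and Rrm2, a ribonucleotide reductase subunit, 53.7 ± 30.3 in floxed-labelled and 21.7 ± 6.44 in control-labelled regions (SD, n = 3 each), with adjusted p of 0.148 and 0.279 (limma). Of 18 genes of RNA editing and nuclease clearance 0 were called (limma), with 2 at an unadjusted p under 0.05 and a median of 0.14. Adjusted p were 0.309 for the ribonuclease gene Rnaset2a and 0.381 for Rnaseh2a, the catalytic subunit of RNase H2 (limma). Adarb1, another editing enzyme, read 44.4, 10.9 and 12.3 in floxed-labelled regions, against 22.7, 40.4 and 29.8 in control-labelled regions, and the groups overlapped. Of 32 other DEAD-box and DExH-box helicases 0 were called and 0 had an unadjusted p under 0.05 (limma), with a median of 0.11 and a range from -0.58 to 0.58. Ddx18 and Dhx37, helicases of ribosome assembly, had the smallest p among them, 0.410 and 0.432 after adjustment (limma).

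Of 7 other Toll-like receptor genes and partners Ly86 was called, 3 had an unadjusted p under 0.05, and the median was -0.01. Cd180, the receptor that MD-1 binds, and Tlr4, the lipopolysaccharide receptor, had log2 differences of 0.84 ± 0.31 and 0.74 ± 0.32 (SE), with adjusted p of 0.277 and 0.358 (limma). Of 23 listed interferon and related cytokine genes, 3 were tested, and 0 were called, with 0 at an unadjusted p under 0.05 (limma). Ifna12, a type I interferon, read 1.85, 4.35 and 11.2 in floxed-labelled regions, against 15.9, 6.26 and 6.68 in control-labelled regions, near the negative probe, and Il18 had a log2 difference of -0.28 ± 0.33 (SE, adjusted p 0.767, limma). The other genes of this list were not found by the listed names among the targets.

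**Figure D4:**
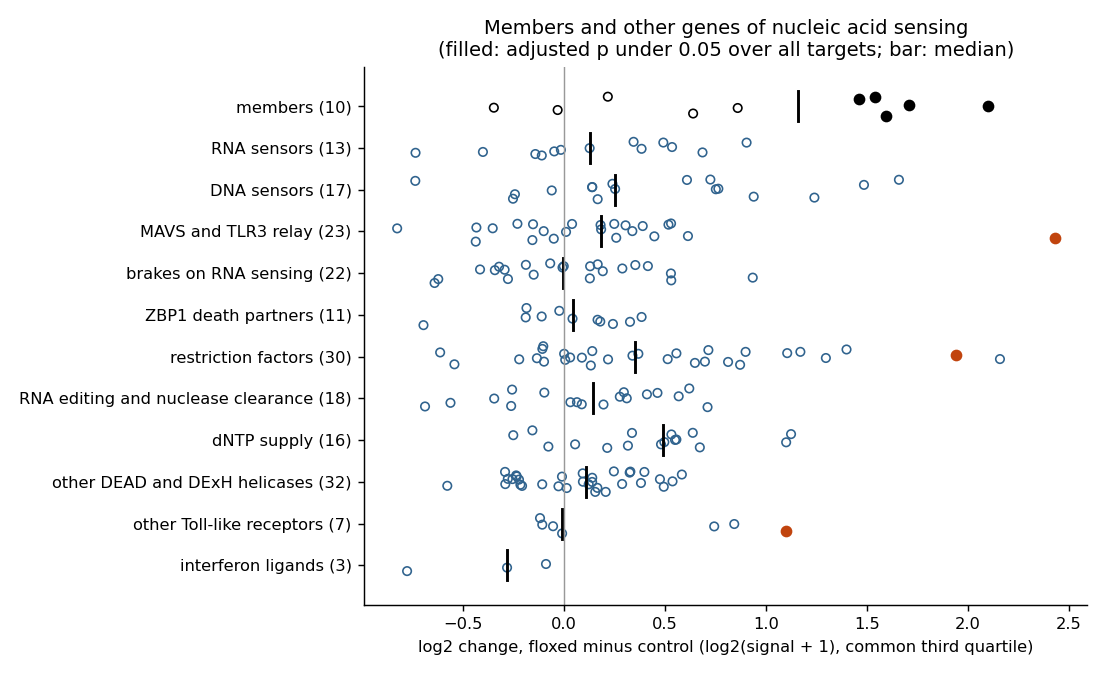
Log2 difference, floxed-labelled minus control-labelled, of the 10 members and of the tested genes of 11 lists (number of genes in brackets), with filled points for an adjusted p under 0.05 over all targets and a bar for the median. List medians run from -0.28 to 0.49, and the filled points outside the members are Irf7, Bst2 and Ly86.

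The targets whose log2 values over the 6 regions were most like the members' mean profile, of 12208 compared, were Ly86, Nudt7, Nmi, Rap1gds1 and Oasl2, with Pearson's r of 0.998, 0.996, 0.993, 0.987 and 0.987. Oasl2, an interferon-induced relative of oligoadenylate synthetase, read 77.7, 113 and 122 in floxed-labelled regions, against 18.9, 23.9 and 23.1 in control-labelled regions. Nmi, an interferon-induced partner of STAT proteins, read 31.5, 34.8 and 37.0 in floxed-labelled regions, against 22.7, 23.3 and 23.1 in control-labelled regions. The points fall into the 2 genotypes and share each region's depth, so r is a description.

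Markers of other cells differed beside the members. All 8 tested T and NK cell markers had a log2 difference above 0 and 0 were called (limma, 4 at an unadjusted p under 0.05). They summed to 83.3 to 185 in floxed-labelled and 65.7 to 71.0 in control-labelled regions, and the brightest, Trac, read 14.8, 26.1 and 35.9 in floxed-labelled regions, against 6.80, 8.54 and 9.77 in control-labelled regions. The 7 dendritic cell markers summed to 215 to 273 in floxed-labelled and 93.7 to 117 in control-labelled regions, with Bst2 called, which is also in the restriction list. The 12 macrophage and monocyte markers summed to 568 to 853 in floxed-labelled and 374 to 727 in control-labelled regions, with Lyz2 called higher. These sums overlapped, and 9 of the 12 had a log2 difference above 0 and 3 below. The 6 B and plasma cell markers summed to 436 to 4102 in floxed-labelled and 52.1 to 75.6 in control-labelled regions, with Igha, Igkc and Jchain called higher. Their log2 differences were above 0 for 5 and below 0 for 1. Of 5 neutrophil markers, which summed to 59.2 to 87.1 in floxed-labelled and 119 to 154 in control-labelled regions, S100a8 and S100a9 fell. Among these 5, log2 differences were above 0 for 2 and below 0 for 3. No tested marker was listed at 0.

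The 15 fibroblast and stellate markers summed to 3961 to 5577 in floxed-labelled and 6358 to 8989 in control-labelled regions, with 0 called (limma, 3 at an unadjusted p under 0.05). The collagen genes Col1a1 and Col3a1 weighed most in these sums, with means of 1729 and 1500 in floxed-labelled and 2982 and 2711 in control-labelled regions. Of the 15 markers, 6 had a log2 difference above 0 and 9 below, with a median of -0.17. Endothelial markers, 8 tested, summed to 130.1 to 237 in floxed-labelled and 113 to 341 in control-labelled regions, with 0 called (limma, 0 at an unadjusted p under 0.05). Of these 8, 2 had a log2 difference above 0 and 6 below. The 10 epithelial and tumour markers summed to 1568 to 3543 in floxed-labelled and 3794 to 6540 in control-labelled regions, with 0 called (limma, 6 at an unadjusted p under 0.05). Of these 10, 3 had a log2 difference above 0 and 7 below. The 10 hepatocyte markers summed to 2696 to 8832 in floxed-labelled and 3609 to 4788 in control-labelled regions, with Fabp1 called higher. These markers were mixed, 6 with a log2 difference above 0 and 4 below, the lowest at -1.02. In all 3 floxed-labelled regions 2 of them stood above and 1 below the control-labelled range, beside 10.0% and 9.08% of all targets. The part of these cells in the members' levels was not tested. In such areas fewer cells with a transcript and less transcript per cell cannot be told apart.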

How the data were processed

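Per the labels' protocols and design text, frozen sections of mouse cholangiocarcinoma were fixed with formalin and hybridised with GeoMx mouse probes. The sources do not state how areas were placed or how tags were counted and scaled, and no genome build is given. The deposited table holds signal values, made by the authors, for 13264 targets and a negative probe in 6 regions, and 0 other value columns were set aside. Of a column's values 99.98% were whole multiples of its step (tolerance 0.01 steps), but whole tags were not established in every column, so no count model was used.

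Groups follow the genotype labels, and replicate numbers follow accession order. The regions were set to the same upper quartile (75th percentile). limma 3.58.1 in R 4.3.3 was fitted to log2(signal + 1) of all 13264 targets, floxed-labelled minus control-labelled, 3 regions each, with a mean-variance trend and Benjamini-Hochberg adjustment at 0.05. The fit was checked on simulated data drawn independently for each target and region, so the check does not cover differences shared across a region. The members, lists, motifs and tests were chosen with earlier results of these data known. The genes named are all members and, in each pathway list, the called genes (at most 4 a direction) and the 2 uncalled genes with the smallest p. Also named are Cd274, Des, Ptprc and Col1a1, and the 5 targets most like the members among those over 2 times the negative probe. The 2 brightest markers of each cell type were to be named, but not all of them are printed. Named after their values were seen were Eif2ak2, Cgas, Sting1, Tbk1, Irf3, Ripk3, Mlkl, Sp140, Slfn2, Slfn4, Adarb1, Lyz2, Jchain and Fabp1. Of the targets 13203 matched a RefSeq symbol, 13 a synonym and 48 neither. Alternatives were other scalings, pseudocounts of 0.5 and 5, filters, variance models, region weights, background subtraction, a threshold of 0.1, a stricter motif and leaving out each region.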

Additional observations from a re-analysis of the deposited data

How the results depend on the processing

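No paired analysis was possible because no label ties floxed-labelled regions to control-labelled regions. The edgeR test on whole tags was not run, since whole tags were not established. As deposited, where the median target lay at -1.22 (log2), 21 targets were called higher and 9905 lower. Of these calls 0.212% were higher, against 83.9% of the calls on the common upper-quartile scale. There 130 pathway genes were called lower, 1 member stood above and 4 below the control-labelled range in all 3 floxed-labelled regions, and the members' median was -0.10, which is 1.124 above the median target. The share of all targets standing above or below that range in this setting is not given here. A common negative probe gave 18 higher and 5 lower targets and 1 higher pathway gene. Without a mean-variance trend limma called 0 targets and 0 pathway genes in either direction, with 1577 targets at an unadjusted p under 0.05. Region weights gave 365 higher and 330 lower targets (52.5% higher), and 16 higher and 4 lower pathway genes. A threshold of 0.1 gave 52 lower targets and 5 higher pathway genes. With the negative probe subtracted the members' median was 1.46. Leaving out a region, higher targets ranged from 15 (control-labelled region 1 left out) to 542 (floxed-labelled region 1 left out, 52.7% higher), and lower targets from 0 to 487. Pathway genes called higher ranged from 0 (floxed-labelled region 3 left out) to 25 (floxed-labelled region 1 left out), and called lower from 0 to 5. The cause was not tested. Of the members' differences under these settings 162 moved by less than the spread between regions, and 18 by more, 10 of them as deposited. The filters and variance models cannot change a difference, so their part of the 162 was fixed in advance and shows no stability. Of the 8 members with a window 0 held 3 GAAA repeats, which contain the pair, beside 0.1996% of targets with a window. Signal near the negative probe limits Tlr3, Ifih1 and Adar in both groups, and Zbp1, Dhx58 and Slfn5 in control-labelled regions.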
